A study of Mus musculus with 8 samples.

Results

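Klra3, Klra9 and Klra10 are 3 genes of the mouse Klra family, which encodes the Ly49 receptors. They were chosen by name, because the study of these cells named them together as leading genes of a group of endothelial cells, so how they are spread over cells, and how often they occur together, is given as a description. They are 3 of 16791 genes in the count table, and 10 Klra genes are in it. Ly49 receptors are C-type lectin-like proteins on natural killer (NK) cells that bind major histocompatibility complex class I molecules on other cells. Inhibitory members carry a tyrosine motif in the cytoplasmic tail that recruits phosphatases, and activating members lack it and pair with the adaptor DAP12, the product of Tyrobp. The genes lie beside each other in the NK gene complex, and their number and sequence differ between mouse strains.

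Ventricular endothelial cells were sorted from adult Pdgfb-iCreERT2-R26R-Brainbow2.1 mice as cells positive for CD31 and for a Confetti fluorophore and negative for podoplanin, a marker of lymphatic endothelium. In this strain tamoxifen switches on a Cre recombinase driven by Pdgfb, so only Pdgfb-lineage cells that recombined carry a fluorophore. All mice received 150 mg/kg tamoxifen and were sampled 21 days later. The 4 healthy mice (227, 228, 239 and 240) had no ligation, and the 4 mice with myocardial infarction (MI) (244, 250, 255 and 256) had the left anterior descending coronary artery tied permanently at day 14 and were sampled 7 days post-MI.

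Each mouse gave 1 droplet library in which transcripts are counted at their 3′ end by unique molecular identifiers (UMIs). Healthy libraries held 2750 to 3807 cells and 6764977 to 8793655 UMIs, and MI libraries held 3581 to 5109 cells and 15865234 to 27244947 UMIs. Because of this gap, shares of cells with a UMI were compared after thinning each cell to 1000 UMIs, which left out 1595 healthy and 0 MI endothelial cells. Of 31028 cells, 2336 (7.53%) carried markers of pericytes, smooth muscle, fibroblasts or blood cells and were set apart, and the other 28692 are called endothelial here. Pecam1, which encodes CD31, had a UMI in 56.4% of the endothelial cells at 1000 UMIs. Cells set apart made up 2.40% to 7.63% of a healthy library and 6.42% to 13.2% of an MI library.

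Healthy libraries shared cells. Healthy 228 and 239 had 2041 barcodes in common, and in 2030 of them at least 90% of the smaller cell's UMIs were also in the larger one, always with the smaller copy in 228, where such copies made up 55.3% of cells. A further 301 copies (10.9% of its cells) lay in Healthy 227, with their larger partner in 228, and 2 lay in Healthy 239. No copies were found among MI libraries. Copied cells were kept, and values without them are given beside some of the results. Xist, which is transcribed from the inactive X chromosome, was at 58.3 CPM (UMIs of the gene per 1000000 UMIs of the summed cells) in Healthy 227 and 0.511 CPM in MI 244 and at 1015 to 1173 CPM in the other 6 mice.

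All 3 genes lie on the minus strand of chromosome 6 in mouse build GRCm38. Klra3 (ENSMUSG00000067591, also Ly49c) spans chr6:130323289-130337574, Klra9 (ENSMUSG00000033024, also Ly49I) spans chr6:130178675-130193112 and Klra10 (ENSMUSG00000072718, also Ly49J) spans chr6:130269194-130281928. Klra8 (ENSMUSG00000089727, also Ly49h), an activating receptor used here for contrast, spans chr6:130115226-130129898. Each has a coding sequence of 266 codons before the stop. The start of the coding sequence shows which kind of tail each gene encodes. The first 60 coding bases are printed 5′ to 3′ from the GENCODE transcripts, with codons 6 to 11 in capitals where they spell the inhibitory tyrosine motif.
Klra3: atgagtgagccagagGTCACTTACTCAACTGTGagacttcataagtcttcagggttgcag
Klra9: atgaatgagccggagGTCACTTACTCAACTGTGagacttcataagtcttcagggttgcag
Klra10: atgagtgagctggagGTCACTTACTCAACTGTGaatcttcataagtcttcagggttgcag
Klra8: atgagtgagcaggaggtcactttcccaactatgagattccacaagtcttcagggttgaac
The motif was present, with the same bases, in Klra3, Klra9 and Klra10, and the stretch in Klra8 did not match it.

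The 3 coding sequences are close to each other, which limits how far their counts can be told apart. Klra3 and Klra9 were identical at 95.9% of aligned coding bases, Klra3 and Klra10 at 96.2% and Klra9 and Klra10 at 96.9%. Klra8 was identical to each of them at 90.5% to 91.9%. Of the stretches of 75 bases in the last 500 bases of the transcript, where 3′ counting reads, 81.5% occurred in no other annotated transcript of another gene for Klra3, 76.1% for Klra9, 76.5% for Klra10 and 100% for Klra8. Unique stretches can differ from another gene by few bases, since the ends of Klra3 and Klra9 were identical at 98.2% of aligned bases. The stretches that were not unique were shared among Klra3, Klra9, Klra10 and the pseudogene Klra11-ps. The annotated Klra10 transcript ends 19 bases after its last amino acid codon, against 318 bases for Klra3 and Klra9, so reads from a longer Klra10 transcript end would not be counted under this model, and its level is uncertain. UMIs of the 3 genes are therefore given one by one and also together.

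The windows before the annotated starts of Klra3 and Klra9 were near-copies too, with 96.1% identity over 233 aligned bases. They are printed 5′ to 3′ from RefSeq (GRCm38.p6, minus strand), at chr6:130337627-130337876 for Klra3 and chr6:130193113-130193362 for Klra9, to show how alike the regions are from which these genes are read. Capitals mark GGAA, the core letters bound by ETS factors, on either strand (TTCC in the printed strand).
Klra3: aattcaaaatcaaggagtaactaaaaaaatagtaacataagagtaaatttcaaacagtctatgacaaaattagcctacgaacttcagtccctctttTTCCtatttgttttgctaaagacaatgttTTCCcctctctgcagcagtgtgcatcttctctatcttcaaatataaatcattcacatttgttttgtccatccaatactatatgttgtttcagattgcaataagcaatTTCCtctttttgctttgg
Klra9: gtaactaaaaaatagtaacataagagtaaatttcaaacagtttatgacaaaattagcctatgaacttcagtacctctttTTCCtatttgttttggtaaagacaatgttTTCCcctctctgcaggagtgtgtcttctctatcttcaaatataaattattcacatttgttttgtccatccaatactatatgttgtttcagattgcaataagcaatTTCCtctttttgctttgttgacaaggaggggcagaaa
Each window held 3 matches to GGAA, a motif found in 93.5% of the 32851 RefSeq windows of this length. The Klra10 window could be aligned to that of Klra3 over only 34 bases, and its annotated start lies elsewhere in the gene.

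Cells with a member UMI were uncommon in every mouse and less common after MI. At 1000 UMIs per cell, 2.67% of the 27097 endothelial cells had at least 1 UMI from any of the 3 genes. The share was 4.97% in Healthy 227, 5.58% in Healthy 228, 3.65% in Healthy 239 and 3.60% in Healthy 240. It was 0.704% in MI 244, 1.93% in MI 250, 0.621% in MI 255 and 2.86% in MI 256. The lowest healthy mouse lay above the highest MI mouse, and MI 244 and MI 255 were well below the other MI mice. The means were 4.45% ± 0.98 (SD, n = 4) in healthy mice and 1.53% ± 1.07 (SD, n = 4) in MI mice. Without copied cells the healthy mean was 4.91% ± 1.76 (SD, n = 4), a wider spread, and Healthy 228 rose to 7.35%. At deposited depth the means were 6.93% and 4.33%, and the groups overlapped, with MI 256 at 7.37% and Healthy 239 at 5.37%. At 800 UMIs per cell they also overlapped, with 2.57% in the highest MI mouse and 2.55% in the lowest healthy mouse.

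**Figure D1:**
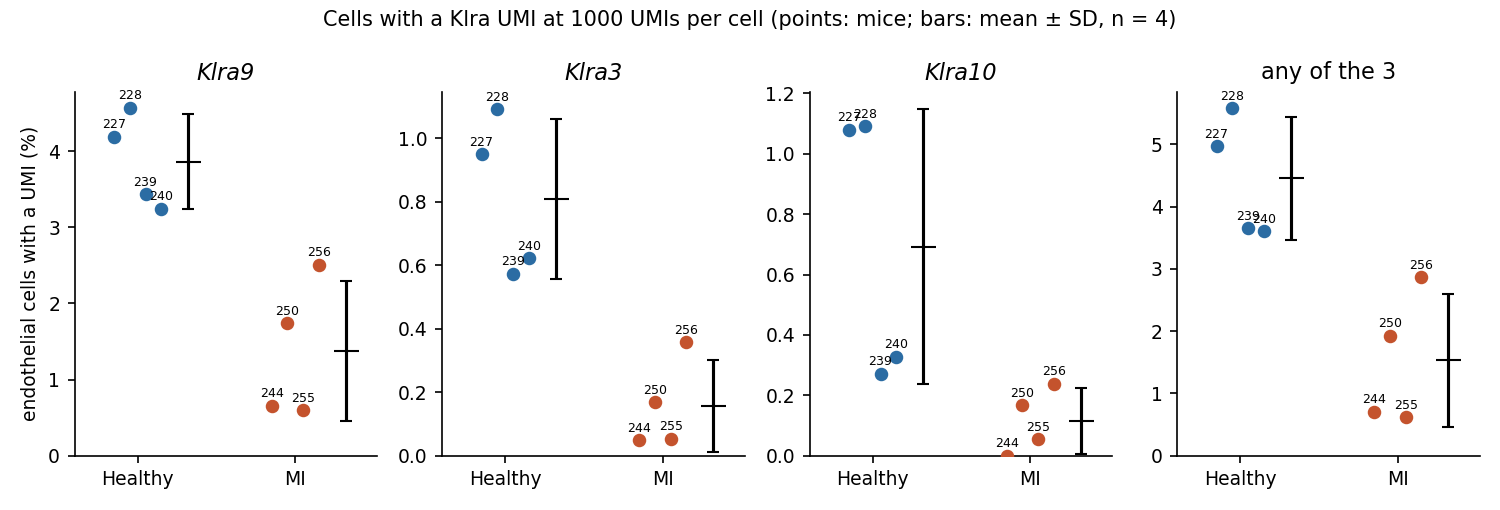
Share of endothelial cells with at least 1 UMI of Klra9, Klra3, Klra10 or any of them at 1000 UMIs per cell, in percent, on an axis of its own for each panel. Points are mice (labelled by number) and bars are mean ± SD over 4 mice. For each gene the 4 MI mice lie below the 4 healthy mice.

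Klra9 carried most of the signal. Its share of cells at 1000 UMIs was 4.19%, 4.57%, 3.44% and 3.24% in Healthy 227, 228, 239 and 240, and 0.656%, 1.74%, 0.594% and 2.51% in MI 244, 250, 255 and 256. The share with Klra3 was 0.950%, 1.09%, 0.573% and 0.622% in the healthy mice and 0.0486%, 0.168%, 0.0540% and 0.358% in the MI mice, in the same order. For Klra10 it was 1.08%, 1.09%, 0.271% and 0.328%, against 0%, 0.168%, 0.0540% and 0.239%. Within each gene no MI mouse reached the lowest healthy mouse at this depth and seed. The groups overlapped for Klra3 when the cells were thinned with another random seed, for Klra9 at 800 UMIs per cell (2.36% in the highest MI and 2.20% in the lowest healthy mouse) and for all 3 genes without thinning. Klra10 in MI 244 was found in 0 of 4119 cells at 1000 UMIs, which allows a share of up to 0.0728% at that depth. At deposited depth 10 of these cells (0.243%) held it. In the healthy group, 227 and 228 were above 239 and 240 for each gene, most widely for Klra10. Without copied cells Healthy 228 was at 5.77% for Klra9, 1.77% for Klra3 and 1.71% for Klra10.

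UMIs summed over all endothelial cells of a mouse at deposited depth, the measure used for the test, separated the groups too. Klra9 was at 48.5, 58.8, 34.0 and 35.0 CPM in Healthy 227, 228, 239 and 240, and at 4.81, 15.5, 5.17 and 24.2 CPM in MI 244, 250, 255 and 256. It was lower after MI by a log2 fold change of -1.93 (SE 0.48, adjusted p = 0.0107, edgeR quasi-likelihood test). Klra3 was at 10.6, 11.8, 5.67 and 4.77 CPM in the healthy mice and 0.383, 1.44, 0.699 and 3.24 CPM in the MI mice. Its log2 fold change was -2.67 (SE 0.56, adjusted p = 0.00503, edgeR). Klra10 was at 9.50, 10.9, 4.22 and 2.65 CPM against 0.425, 0.971, 0.280 and 2.11 CPM. Its log2 fold change was -3.01 (SE 0.62, adjusted p = 0.00442, edgeR).

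All 3 genes fell in this test, and in all 3 every MI mouse was below every healthy mouse. Over all 12246 genes tested, 18.8% were called lower in MI and 38.2% were called in either direction, and 12.4% had every MI mouse below every healthy mouse. The median log2 fold change over all genes was -0.02. Without copied cells the log2 fold changes were -2.01 for Klra9, -2.86 for Klra3 and -3.19 for Klra10 (adjusted p 0.00566 to 0.0118, edgeR). In such sums, fewer cells that express a gene and less RNA per expressing cell cannot be told apart. Cells with at least 5 member UMIs at deposited depth made up 0.457%, 0.620%, 0.169% and 0.157% of the endothelial cells of Healthy 227, 228, 239 and 240 (12, 21, 6 and 5 cells) and 0%, 0.126%, 0% and 0.269% of those of MI 244, 250, 255 and 256 (0, 6, 0 and 9 cells). The groups overlapped here, with MI 256 above Healthy 239 and 240. MI cells were deeper at deposited depth, which favours such counts. At 1000 UMIs, 4 healthy and 0 MI endothelial cells held 5 or more member UMIs.

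Klra3 and Klra10 were mostly found in cells that also held Klra9 at deposited depth, and less so at equal depth. At deposited depth, 2248 UMIs of Klra9 lay in 1559 cells, 354 of Klra3 in 313 cells and 263 of Klra10 in 230 cells, counted over all deposited cells. Of the cells with Klra3, 90.7% also held Klra9, and of the cells with Klra10, 93.0% did, against 4.15% of the cells without Klra3 and 4.37% of the cells without Klra10. At 1000 UMIs per cell these shares were 55.8% and 47.3%, against 2.01% and 2.08%. Of the 1601 cells with a member, 1194 held only Klra9, 133 held all 3, 26 held only Klra3 and 13 held only Klra10, while at 1000 UMIs 39 held only Klra3 and 37 only Klra10. Klra9 made up 78.5% of the 2865 member UMIs. The part in these pairs of reads shared among the near-identical copies was not tested.

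Klra8, whose transcript end shares no stretch of 75 bases with another gene, lay largely in the same cells at deposited depth. It had 219 UMIs in 165 cells, of which 93.9% also held a member and 3.03% were set apart as another cell type. At 1000 UMIs it was found in 67 cells, of which 50.7% also held a member, and among endothelial cells of MI mice 26.9% did. In endothelial sums it was at 2.38, 4.30, 3.30 and 3.98 CPM in Healthy 227, 228, 239 and 240 and at 0.128, 0.802, 0.652 and 2.18 CPM in MI 244, 250, 255 and 256. Klra8 fell after MI with a log2 fold change of -2.08 (SE 0.58, adjusted p = 0.0183, edgeR). The call was lost without Healthy 228, where the fold change was -1.94 (adjusted p = 0.0537, edgeR). It was also lost in sums of thinned cells, where the fold change was smaller, at -1.11 (adjusted p = 0.176, edgeR). Without copied cells the fold change was -2.24 (adjusted p = 0.0177, edgeR). Of the 7 other Klra genes in the table Klra8 alone passed the filter on low counts, and it was called lower.

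Klra2 had a different distribution. Its 370 UMIs lay in 249 cells, of which 92.4% were set apart as another cell type and 59.8% carried macrophage markers. Only 2.01% of its cells held a member UMI. Klra17 had 22 UMIs in 20 cells, and 0 of those cells held a member UMI. Klra1, Klra4, Klra5 and Klra7 had between 3 and 41 UMIs each in all cells.

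Car4, which encodes a membrane-bound carbonic anhydrase, and Timp4, which encodes an inhibitor of matrix metalloproteinases, were taken as genes of capillary endothelium. At 1000 UMIs, the share of endothelial cells with a member UMI was 6.11% among cells with Car4 and 4.59% among cells without it in Healthy 227, 7.94% and 4.98% in Healthy 228, 4.94% and 3.29% in Healthy 239, and 3.59% and 3.61% in Healthy 240. After MI it was 1.43% and 0.637% in MI 244, 3.92% and 1.59% in MI 250, 3.92% and 0.479% in MI 255, and 5.61% and 2.46% in MI 256. It was thus higher among cells with Car4 in 7 of 8 mice, and in Healthy 240 the shares were nearly equal. The mean difference was 1.98 ± 1.21 percentage points (SD, n = 8). The number of cells with both genes was small after MI, between 5 and 27 per mouse.

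Timp4 gave smaller differences of one sign. The share with a member UMI was higher among cells with Timp4 in 8 of 8 mice, by 0.139 to 1.58 percentage points, with a mean of 1.11 ± 0.54 (SD, n = 8). The smallest difference was in MI 244, where 3 cells held both. Without copied cells the mean differences were 1.93 points for Car4 and 1.11 points for Timp4. No test was made, since the spread of the members over cells was used to choose them.

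**Figure D2:**
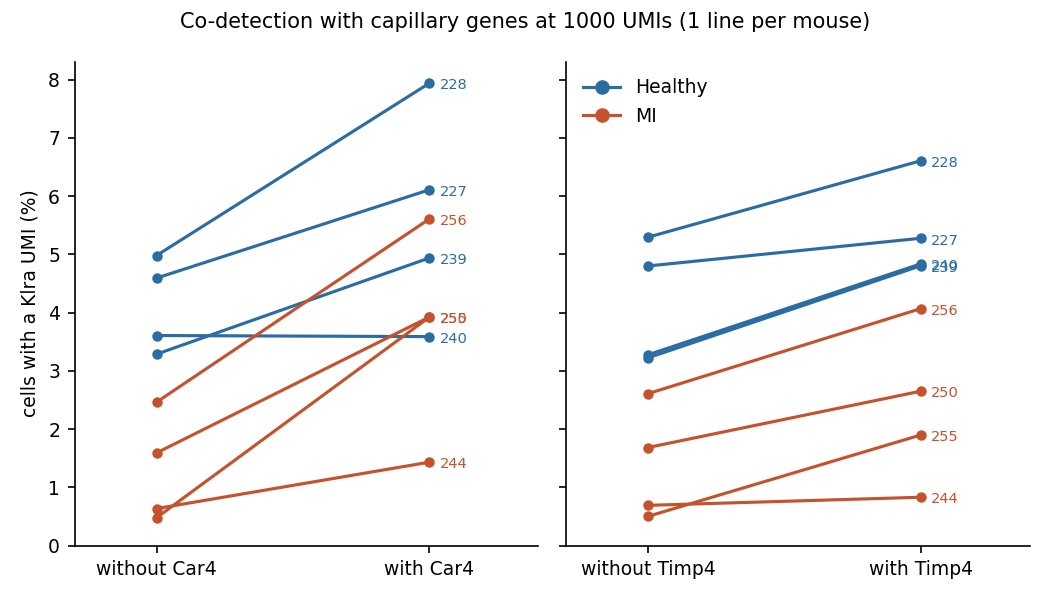
Share of endothelial cells with a UMI of Klra3, Klra9 or Klra10, in percent, among cells without and with a UMI of Car4 (left) or Timp4 (right) at 1000 UMIs per cell. Each line is 1 mouse. The line rises in 7 of 8 mice for Car4 and in 8 of 8 for Timp4.

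Cells with Car4 or Timp4 were themselves a smaller share of endothelial cells after MI, 22.1% ± 10.2 (SD, n = 4) against 40.8% ± 5.85 (SD, n = 4) in healthy mice. Members were therefore also compared among cells with Car4 or Timp4 alone. There the share of cells with a member UMI was 5.58%, 7.21%, 4.36% and 4.05% in Healthy 227, 228, 239 and 240, and 1.07%, 3.07%, 2.33% and 4.82% in MI 244, 250, 255 and 256. The groups overlapped, with MI 256 above Healthy 239 and 240. Among cells with neither gene the means were 3.88% ± 0.75 (SD, n = 4) in healthy mice and 1.13% ± 0.79 (SD, n = 4) in MI mice, and the groups did not overlap.

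Summed levels in the cells with Car4 or Timp4 fell after MI as well, by less than over all endothelial cells, a difference that was not tested. Klra9 was at 59.4, 81.0, 47.1 and 45.9 CPM in Healthy 227, 228, 239 and 240 and at 11.1, 26.1, 14.8 and 45.4 CPM in MI 244, 250, 255 and 256. MI 256 was just below the lowest healthy mouse. Its log2 fold change was -1.29 (SE 0.35, adjusted p = 0.0208, edgeR). Klra3 ranged from 6.79 to 19.1 CPM in healthy mice and from 1.30 to 6.57 CPM in MI mice, with a log2 fold change of -1.83 (SE 0.47, adjusted p = 0.0173, edgeR). Klra10 ranged from 3.59 to 14.3 CPM in healthy mice and from 0.985 to 4.38 CPM in MI mice, and these ranges overlapped. Its log2 fold change was -2.12 (SE 0.54, adjusted p = 0.0160, edgeR).

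The 3 members were called lower in these cells, where 11.7% of the 10289 genes tested were called lower, 22.8% were called in either direction and 8.62% had every MI mouse below every healthy mouse. The calls were less firm than over all endothelial cells. All 3 were lost without Healthy 228 (adjusted p 0.0504 to 0.0633, edgeR) and without MI 250 (0.0563 to 0.0685), Klra3 and Klra10 also without MI 244 (0.0505 and 0.0501), and Klra9 also without MI 255 (0.0587). They held without copied cells (0.0199 to 0.0239).

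**Figure D3:**
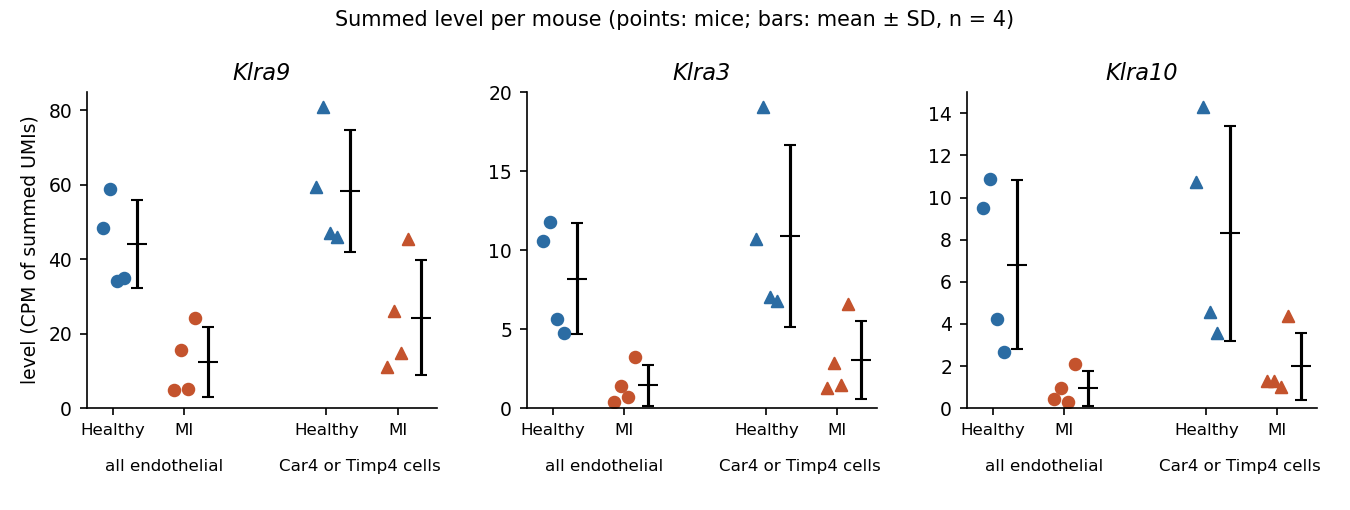
Level of Klra9, Klra3 and Klra10 per mouse in CPM of UMIs summed over all endothelial cells (circles) and over endothelial cells with Car4 or Timp4 (triangles), with mean ± SD over 4 mice. Klra9 in the Car4 or Timp4 cells of MI 256, at 45.4 CPM, reaches the level of the lower healthy mice.

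Marker lists were used to see which endothelial classes held the members. A cell was counted in a class when it held at least 2 UMIs of the class's list at 1000 UMIs, so a cell can be in several classes. Cells with at least 2 UMIs of Car4 and Timp4 together held a member in 5.04% of 1963 healthy cells (95% exact binomial interval 4.12% to 6.11%) and 3.60% of 1221 MI cells (2.63% to 4.81%). Per mouse this class had a higher member share than all other endothelial cells in 7 of 8 mice. A longer capillary list with Cd36, Fabp4, Gpihbp1 and others held 99.3% of the endothelial cells and could not divide them.

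Member shares were lower in arterial cells than in the other endothelial cells of both groups, in Plvap-marked cells of both groups when mice were pooled, and in venous cells of the MI group. Arterial cells (Hey1, Gja4, Gja5, Sox17 and others) held a member in 1.46% of 2403 healthy cells (1.02% to 2.02%) and 0.584% of 2912 MI cells (0.340% to 0.933%), below the other endothelial cells in 8 of 8 mice. Venous cells (Nr2f2, Ackr1, Vcam1 and others) did so in 2.73% of 366 healthy cells (1.32% to 4.97%) and 0.271% of 1105 MI cells (0.0560% to 0.791%), against 4.39% and 1.60% of the other endothelial cells, of which the healthy value lies within the interval. For cells marked by Plvap, Lrg1, Bgn and Vwf, genes of venules and of activated endothelium, the share was 0.667% of 150 healthy cells (0.0169% to 3.66%) and 0.300% of 2334 MI cells (0.121% to 0.617%), against 4.39% and 1.71% of the other endothelial cells. Cycling cells (Mki67, Top2a and others) held a member in 0.699% of 143 healthy cells (0.0177% to 3.84%), below the 4.39% of the others, and in 0.844% of 1066 MI cells (0.387% to 1.60%), an interval that holds the 1.55% of the others. The share in venous, Plvap-marked and cycling cells was also below the rest in 8 of 8 mice for each class, but some of these mice had few such cells: the 3 healthy mice without a member among 30 to 41 cycling cells allow shares of 7.32% to 10.0%. Without copied cells the mean over mice of the share in these 4 classes was below that of the rest by 1.39 to 2.50 percentage points. Intervals cover counting error only, and pooled cells of a group are not replicates.

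The classes marked by response genes differed less from the rest. Cells with interferon-induced GTPases of the IRG and GBP families held a member in 5.73% of 2007 healthy cells and 1.50% of 3267 MI cells. The other endothelial cells were at 4.03% and 1.51%. Of these healthy GTPase cells, 954 were from Healthy 227 and 540 from Healthy 228. By mouse the class was higher than the rest in 6 of 8 mice. Sprouting cells (Apln, Esm1, Angpt2 and others) held a member in 5.13% of 838 healthy and 1.47% of 2046 MI cells, higher in 5 of 8 mice. Without Healthy 228 the mean difference of these classes from the rest fell from 0.669 to 0.228 percentage points for the GTPases and from 0.651 to 0.218 for sprouting cells. Interferon-response cells (Ifit1, Isg15 and others) were at 3.93% and 1.21%, lower in 6 of 8 mice, and cells with immediate early and heat shock genes were at 4.28% and 1.60%, lower in 5 of 8 mice. Lymphatic cells (2 of 104 cells) and endocardial cells (0 of 76 cells, which allows a share of up to 3.95%) were too few to place.

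**Figure D4:**
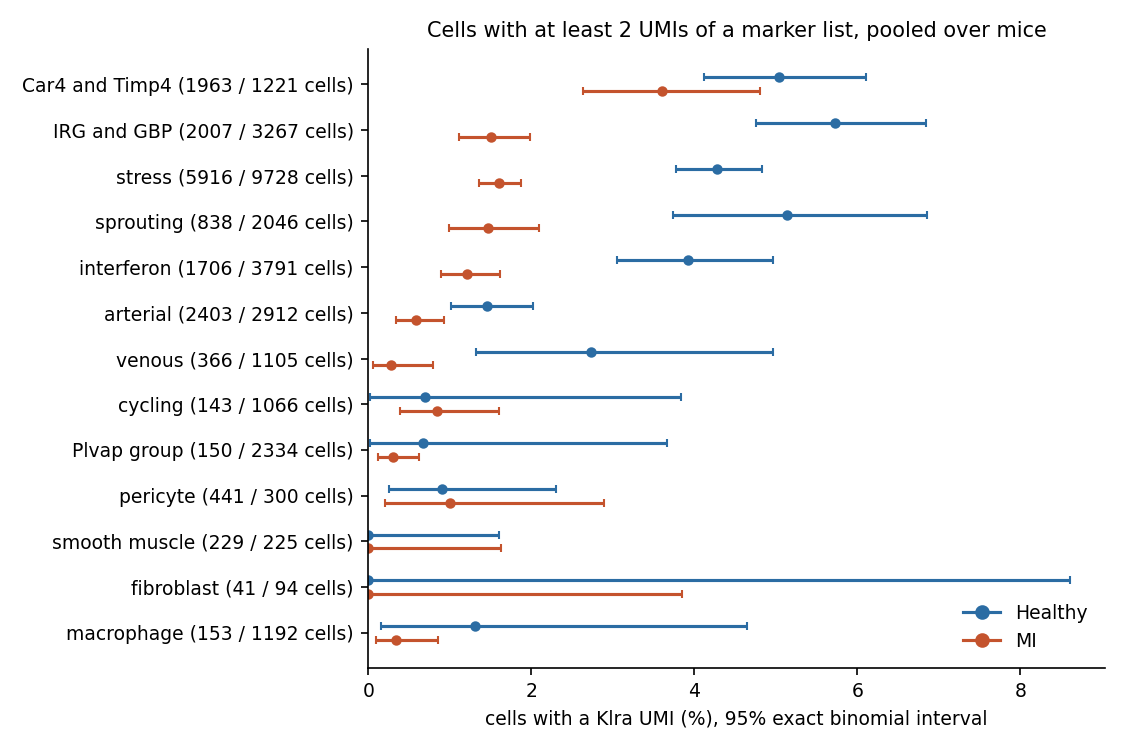
Share of cells with a UMI of Klra3, Klra9 or Klra10, in percent, for cells with at least 2 UMIs of each marker list at 1000 UMIs per cell, pooled over the healthy (blue) and MI (orange) mice. Bars are 95% exact binomial intervals, which cover counting error only, and the cell numbers are healthy / MI. Arterial cells sit at 1.46% and 0.584%, below the Car4 and Timp4 cells at 5.04% and 3.60%.

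Member UMIs in smooth muscle cells, fibroblasts, B cells, pericytes and macrophages were taken as a reference level, called background here. NK and T cells are described below. Pecam1 had a UMI in 36.3% of pericytes and 21.3% of macrophages. Whether member UMIs in such cells came from free RNA in a droplet, doublets or the cells themselves was not tested. Smooth muscle cells held a member UMI in 0 of 454 cells, which allows a share of up to 0.661%, at a median deposited depth of 4934 UMIs, against 3103 for endothelial cells without a member. Fibroblasts held one in 0 of 135 cells (up to 2.22%) and B cells in 0 of 116 cells (up to 2.59%). Pericytes held one in 0.907% of 441 healthy cells (0.248% to 2.31%) and in 3 of 300 MI cells (0.207% to 2.89%), and macrophages in 0.446% of 1345 cells (0.164% to 0.968%), with 1.31% of 153 healthy (0.159% to 4.64%) and 0.336% of 1192 MI macrophages. Pooled over MI mice, the member shares of Plvap-marked and venous cells were no higher than that of macrophages, so they cannot be told from background at this depth. The intervals of arterial cells in both groups, and of cycling MI cells, also overlapped those of macrophages. The healthy macrophage interval rests on 2 of 153 cells and is wide. It also overlaps the endothelial shares of Healthy 227 (4.12% to 5.93%), Healthy 239 (3.04% to 4.35%) and Healthy 240 (2.97% to 4.33%). The healthy Car4 and Timp4 class (4.12% to 6.11%) overlaps it too, while the endothelial share of Healthy 228 (4.71% to 6.56%) does not. Without copied cells Healthy 228 (6.09% to 8.78%) also overlaps healthy macrophages (2 of 99 cells, 0.246% to 7.11%). The 3 venous MI cells with a member were all from MI 256, at 1.69% of its 178 venous cells against 0.794% of its 126 macrophages. The shares in MI 244 (0.472% to 1.01%) and MI 255 (0.394% to 0.931%) overlap the interval of MI macrophages (0.0915% to 0.857%), although 0 of 348 macrophages of MI 244 and 0 of 475 of MI 255 held a member UMI, which allows up to 0.862% and 0.632%. In MI 250, 3 of 243 macrophages (1.2%) held a member UMI, against 1.93% of its endothelial cells. The interval of MI pericytes (0.207% to 2.89%) overlaps the endothelial shares of all MI mice, also of MI 250 (1.56% to 2.36%) and MI 256 (2.33% to 3.49%). It overlaps the MI Car4 and Timp4 class (2.63% to 4.81%) too, and rests on 3 of 300 cells.

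Ptprc encodes CD45, the surface protein of blood cells. Over all cells, 319 held a Ptprc UMI at 1000 UMIs, and 5 of them (1.57%, 0.511% to 3.62%) held a member, against 2.53% of the cells without Ptprc. Most cells with Ptprc, 268, were from MI mice, and within groups the shares were closer, 3.92% against 4.13% in healthy mice and 1.12% against 1.43% in MI mice. Without copied cells the healthy shares were 5.71% and 4.33%. The pooled difference of -0.958 percentage points depended on single mice, at -0.592 without Healthy 228, -0.600 without MI 255 and -1.44 without MI 256, and was -2.14 without thinning. By mouse, a member was found in 2 of 8 Ptprc cells of Healthy 227, 1 of 46 of MI 250 and 2 of 34 of MI 256. It was found in none of 18, 19 and 6 Ptprc cells of Healthy 228, 239 and 240, nor in any of 91 of MI 244 and 97 of MI 255, which allows up to 16.7%, 15.8%, 50%, 3.30% and 3.09%. Without copied cells Healthy 228 had only 3 cells with Ptprc, so its limit of 16.7% rests largely on copies. Of all cells with a member, 0.677% held Ptprc, against 1.10% of the other cells, and within groups it was 0.409% against 0.432% in healthy mice and 1.20% against 1.53% in MI mice.

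Cells with NK markers (Ncr1, Klrb1c, Nkg7, Gzma and others) numbered 17 in the 8 mice, and 4 of them (23.5%, 6.81% to 49.9%) held a member. Ncr1 had a UMI in 5 cells at 1000 UMIs, 1 of them with a member. T cells held a member in 0 of 22 cells, which allows up to 13.6%. Among the 739 cells with a member, 5 thus held Ptprc and 4 carried NK markers.

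The genes most like the members were found by comparing, within each mouse, endothelial cells with and without a member UMI at 1000 UMIs (724 and 26373 cells, 23 to 138 with a member per mouse). The measure is the log2 ratio of summed CPM with 20 CPM added, averaged over 8 mice, and the 3272 genes whose level averaged 50 CPM or more were ranked by it. Car4 came first at 0.95 ± 0.60 (SD, n = 8) and Timp4 the third at 0.68 ± 0.50, both named with the members beforehand. These ratios were larger in MI mice: Car4 averaged 0.49 in healthy and 1.41 in MI mice, and in healthy mice Gm12002, at 0.56, lay above Car4. Gm12002, a predicted gene, came between them at 0.83 ± 0.37. Of the other genes high in all 8 mice, Aqp7, a glycerol channel, was at 0.62, the nucleoside transporter gene Slc28a2 at 0.60, the xanthine dehydrogenase gene Xdh at 0.58, the sulfotransferase gene Sult1a1 at 0.57 and the lipogenesis gene Thrsp at 0.54. Ccdc85a (0.63), Ssh2 (0.57), Mmd (0.57) and Art3 (0.54) completed the 12 highest of the genes above 0 in all 8 mice. With levels also taken at 1000 UMIs per cell, Mmd was at 0.27, Sult1a1 at 0.33, Ssh2 at 0.34 and Gm12002 at 0.55, while Car4 was at 0.83. Over all genes compared, 122 were above 0 and 142 below 0 in every mouse.

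Of the genes below 0 in all 8 mice, the 6 lowest were led by Hbb-bt, a haemoglobin gene of red cells and rank 3271 of all 3272, at -3.32 ± 0.87 (SD, n = 8). The arterial connexin gene Gja4 was at -2.08 ± 0.63, and Mgp, an inhibitor of vessel calcification, ranged from -2.61 to -1.63 over the mice. Clu followed at -1.92, Igfbp5 at -1.83 and the elastic fibre gene Fbln5 at -1.80. At deposited depth, cells with a member had fewer UMIs than the others in each MI mouse, most in MI 244 with a median of 2999 against 4644. In healthy mice the medians were close, except in Healthy 228, where cells with a member were deeper (2494 against 2070 UMIs).

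Of the 11 genes of the longer capillary list, 10 were above 0 in 8 of 8 mice, from Fabp4 at 0.23 to Car4, and Meox2, at 0.05, was above 0 in 5. The list holds Car4 and Timp4, which were named with the members beforehand. In this list Rgcc was at a log2 ratio of 0.48, Aqp1 at 0.48 and Lpl at 0.47. Gpihbp1, which holds lipoprotein lipase on the capillary wall, was at 0.46 and the fatty acid transporter gene Cd36 at 0.36. Kdr, the main VEGF receptor gene, is not in the list and was at 0.48. All of these were above 0 in 8 of 8 mice. Pecam1 was at -0.01 and above 0 in 3 mice. All 8 genes of the arterial list and all 4 of the Plvap list were below 0 in every mouse, and 4 of 7 of the venous list were. Arterial Hey1 (-1.04) and Sox17 (-0.58), venous Nr2f2 (-0.94), and Plvap (-1.13), Vwf (-1.35) and Lrg1 (-1.23) were among these. Without copied cells the arterial gene Jag1 was above 0 in 1 mouse. Plvap was at -0.42 in healthy and -1.84 in MI mice, Lrg1 at -0.44 and -2.02 and Nr2f2 at -0.53 and -1.34. Of the class I genes that Ly49 receptors bind, H2-D1 was at 0.04 and H2-K1 at -0.05.

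**Figure D5:**
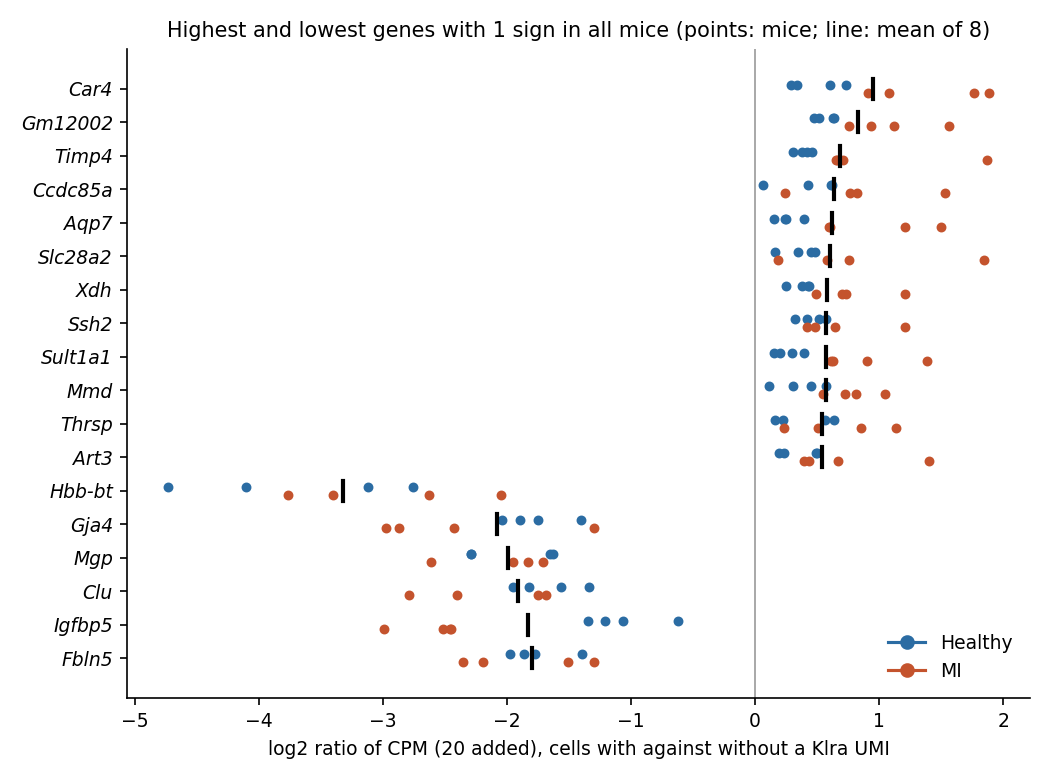
Log2 ratio of CPM (20 CPM added) in endothelial cells with against without a member UMI, for the 12 highest of the genes above 0 in all 8 mice and the 6 lowest of those below 0 in all 8, so that one sign per gene was required. Points are the 8 mice and black lines their means. Among the genes shown, Car4 has the highest mean, 0.95, and Hbb-bt the lowest, -3.32.

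The rest of the receptor pathway was read from the same test of MI against healthy mice. Of all genes tested, 18.8% were called lower and 19.4% higher, and the counts below stand beside these shares. Of 20 other genes of the NK gene complex in the table, 3 passed the filter on low counts and 2 were lower: Clec2d, a ligand of an NK receptor, fell by 0.78 on the log2 scale (147 to 90.9 CPM, adjusted p = 0.0104, edgeR) and Gabarapl1, an autophagy gene, fell by 0.52 (adjusted p = 0.00980, edgeR). NK receptor genes such as Klrk1, Klrd1 and Klrb1c had 6 to 9 UMIs each over all endothelial cells and were not tested. Klrb1c was on the NK marker list used to set cells apart, so its UMIs are those left after this step. Of 12 class I genes tested, 2 fell and 10 were not called at an adjusted p under 0.05, a share near that of all genes. H2-Q1 fell by 1.97 on the log2 scale (adjusted p = 0.0221, edgeR), from a wide range of 5.43 to 50.9 CPM in healthy mice to 4.85 to 8.68 CPM in MI mice, which overlap. H2-T24 fell by 1.26 (adjusted p = 0.00557, edgeR), from 14.3 to 36.9 CPM to 9.06 to 10.7 CPM, with no overlap. H2-K1 was at 0.24 (SE 0.22, adjusted p = 0.408), H2-D1 at 0.39 (SE 0.24, adjusted p = 0.224) and B2m at 0.27 (SE 0.21, adjusted p = 0.320), all by edgeR.

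Of 7 signalling genes tested, 5 rose, where 19.4% of all genes were called higher. Tyrobp, which encodes DAP12, went from 3.66 ± 2.87 to 29.4 ± 8.13 CPM (SD, n = 4, log2 fold change 2.90, adjusted p = 0.000588, edgeR), and Fcer1g from 5.74 ± 5.26 to 32.4 ± 8.64 CPM (2.39, adjusted p = 0.00240). Ptpn6, which encodes SHP-1, a phosphatase that inhibitory receptors recruit, went from 0.254 to 2.18 CPM (3.03, adjusted p = 0.000994), and Hcst and Syk rose too. Ptpn11 and Inpp5d were not called. These 5 genes are expressed in myeloid cells, and cells set apart as other types were more frequent after MI. The part of blood cell RNA in these levels was not tested. Tyrobp was itself on the list used to set blood cells apart, so its level is that left after this step.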

How the data were processed

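The deposited table held UMI counts per gene and cell, made by the authors with Cell Ranger on build mm10 and pooled over 8 libraries, with R 3.5.2 and Seurat 2.3 named in the processing notes. Values were whole-number counts, and cell names carried the mouse. Members and gene lists were chosen with earlier results of these data known.

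Cells with at least 2 UMIs and 0.2% of their UMIs from a list of another cell type were set apart. No clustering and no doublet caller was run. Cells were thinned to 1000 UMIs without replacement, and shallower cells left out. UMIs were summed per mouse and tested with edgeR 4.0.16 (R 4.3.3, TMM, filterByExpr, quasi-likelihood test, two-sided, Benjamini-Hochberg over all genes, adjusted p under 0.05), with 1 sum per mouse and 4 mice per group. Separate mice are taken as the replicates. Healthy libraries shared copied cells, so their main values are not fully independent. The genes named as most like the members were the 12 highest and 6 lowest with 1 sign in all 8 mice. Gene models came from GENCODE on GRCm38 and windows from RefSeq. Both may differ from the annotation the authors used, and no protein sequence was used here.

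Alternatives were DESeq2 1.42.0, no filter on low counts, thinned sums, other thinning depths (800, 1500, none) or seed, cells with at least 800 genes, no copied cells, no cells in the top 5% of UMIs, Xist as a covariate, all deposited cells, other class thresholds (1 or 3 UMIs) and each mouse left out. Exact intervals (95%) and limits for a count of 0 (3 counts) cover counting error only.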

Additional observations from a re-analysis of the deposited data

Results flagged for a closer look

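Of 24 groups of 4 mice examined for a mouse far from the others, 1 was flagged, and chance flags about 1 in 20. The summed level of Klra10 in the Car4 or Timp4 cells of MI 256 was 4.38 CPM, while the other 3 MI mice lay between 0.985 and 1.30 CPM. It rests on 14 UMIs.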

How the results depend on the processing

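No paired analysis was possible because each mouse number occurs in 1 group only. Over all endothelial cells, Klra3, Klra9 and Klra10 stayed lower in MI and called under the 16 alternatives run for each, with log2 fold changes of -3.35 to -2.32, -2.45 to -1.65 and -3.65 to -2.65. In cells with Car4 or Timp4 their signs also held, and with 1 mouse left out the fold changes ranged from -2.39 to -1.44 for Klra3, -1.73 to -1.05 for Klra9 and -2.77 to -1.75 for Klra10, with the lost calls named above. Klra3 and Klra10 did not pass the filter there in sums of thinned cells, which gave no value.

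Thinned sums, which hold fewer counts, gave 1312 genes higher and 1305 lower over endothelial cells (2370 and 2303 at deposited depth) and 402 and 432 in the Car4 or Timp4 cells (1141 and 1203). Leaving out a mouse gave 742 to 1397 higher and 681 to 1446 lower there. The difference in member share was -4.36 percentage points at 1500 UMIs against -2.92 at 1000. Without thinning, the difference with Car4 was 4.38 points (1.98 at 1000 UMIs, 1.19 at 800) and with Timp4 2.97 (1.81 at 1500 UMIs), and for the Car4 and Timp4 class it was 4.10 and for sprouting cells 2.77. For venous cells it was -2.78 at 1500 UMIs. For Plvap-marked cells it was -0.778 at 3 UMIs of the list (-2.62 at 2), for cycling cells -1.23 at 1 UMI (-2.24 at 2), and at 800 UMIs per cell it was 0.0778 for sprouting and 0.0408 for GTPase cells, with 1.90 for the latter without thinning. The small differences of 2 classes changed sign: interferon cells gave 0.167 without thinning (-0.483 at 1000 UMIs), and stress cells (-0.0559) gave 0.587 without thinning, 0.0258 with another seed, -0.801 at 1 UMI, 0.0504 at 3 UMIs, and -0.222 to 0.0732 with a mouse left out. The cause was not tested. Depth limits Klra3 and Klra10, with 24 and 18 MI cells at 1000 UMIs.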
